A study of Arabidopsis thaliana with 12 samples.

Results

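Roots and shoots of Arabidopsis seedlings that overexpress the clock gene CCA1 (CCA1-ox) were compared by RNA sequencing, with 3 libraries of each organ. CCA1 encodes a MYB transcription factor that acts around dawn in the circadian clock and represses genes that peak in the evening. By its title, the series asks how the circadian system bears on H+ gradients and on growth, cell type by cell type. CCA1-ox roots, CCA1-ox shoots and the roots and shoots of wild-type Col-0 (WT) each gave 3 libraries, from seedlings 8 days old that had grown at 22 °C in constant white light of 15 µE. WT is used here only to set its organ difference beside that of CCA1-ox. The promoter that drives CCA1, the number of CCA1-ox lines, the hour of harvest and the side on which the hypocotyl fell were not stated in the labels. A gene entered the comparison where its level reached 1 FPKM in at least 3 of the 6 CCA1-ox libraries, which 20463 of the 33010 genes in the deposited table did. FPKM are fragments divided by gene length and by a library size, which in the deposited values was not the summed fragments of the library.

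Shoots and roots split the work of a seedling. Leaves and cotyledons hold chloroplasts that fix carbon and stomata that admit carbon dioxide. The root surface takes up mineral ions, largely through transporters that run on the proton gradient built by plasma membrane H+-ATPases (AHA), and the endodermis seals the path between cells with Casparian strips and suberin. Whole organs were sequenced, so more cells of a type and more RNA per cell of that type cannot be told apart in any value below.

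The CCA1-ox root libraries held 27142671 to 38537638 fragments and the CCA1-ox shoot libraries 37216665 to 39814773. Replicate libraries differed by a median coefficient of variation of 3.58% in roots and 3.28% in shoots, over genes with 500 fragments or more. Differences were tested with limma on log2(FPKM + 1), and calls were made at a Benjamini-Hochberg adjusted p under 0.05. Values after ± are standard deviations over 3 libraries, a number alone in parentheses after a gene's levels is its log2 fold change, called unless stated otherwise, and coordinates are those of the deposited table (TAIR10). A positive log2 fold change means a higher level in roots. No label says that replicates came from separate cultures, and the p-values therefore describe the spread among these libraries, possibly only technical spread. Levels of near-identical paralogs and of overlapping genes are uncertain, since fragments can be assigned to the wrong copy. Of the genes tested, 1127 overlap a gene on their own strand and 5797 overlap a gene on the other strand.

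Most of the transcriptome differed between the organs. In CCA1-ox, 9240 genes were higher in roots than in shoots (45.2% of the genes tested) and 8403 were lower (41.1%), together 86.2%. Many differences were small: 9835 of these genes changed by less than 2-fold, and the median absolute log2 fold change over all genes tested was 0.67. At least 2-fold differences were found for 3891 genes higher in roots (19%) and 3917 genes lower in roots (19.1%), together 38.2%. On the scale of FPKM + 1, 898 genes were at least 8-fold higher in roots and 1192 at least 8-fold lower. At 32-fold the counts were 191 higher and 339 lower. This scale caps the fold of genes with low levels, so these counts favour abundant transcripts. Genes without any fragment leaned the other way: 319 tested genes had none in the 3 CCA1-ox shoot libraries and 241 had none in the 3 CCA1-ox root libraries. The median log2 fold change over all genes was 0.046, and scaling each library to its summed fragments would add 0.15 to it. Of the genes tested, 16317 reached 1 FPKM in all 6 libraries, 1760 only in the 3 root libraries and 1556 only in the 3 shoot libraries. All 3 root libraries lay above all 3 shoot libraries for 9270 genes (45.3%) and below them for 8475 (41.4%). Genes at 1 FPKM in a single organ had to differ between the organs to enter at all, so the counts are a description of the genes measured.

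CCA1 itself (AT2G46830, chromosome 2, 19245591 to 19248915) stood at 172, 172 and 179.6 FPKM in CCA1-ox roots, against 214, 216 and 212 FPKM in CCA1-ox shoots. All 3 root libraries lay below all 3 shoot libraries, by a small margin (log2 fold change −0.29, SE 0.0267, adjusted p = 3.75e-06). The endogenous copy and the transgene cannot be told apart in these values. In WT the gene stood at 17.1 ± 0.838 FPKM in WT roots and 44.96 ± 0.202 FPKM in WT shoots, and its organ difference there was −1.35. The organ difference in CCA1-ox minus that in WT was 1.05, SE 0.0449, adjusted p = 3.60e-10.

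Morning clock genes were mostly lower in CCA1-ox roots, beside 41.1% lower and 45.2% higher over all genes tested. Of 14 morning genes tested, CCA1 included, 1 rose and 11 fell, 5 of them by at least 2-fold, and the median log2 fold change was −0.76. RVE2, a MYB relative of CCA1, had 6.09, 7.19 and 6.65 FPKM in CCA1-ox roots, against 39.1, 39.4 and 39.7 FPKM in CCA1-ox shoots. Its root libraries all lay below its shoot libraries (log2 fold change −2.405, SE 0.0544, adjusted p = 9.29e-11). RVE1, a relative that links the clock to auxin synthesis, averaged 2.11 ± 0.0816 FPKM in CCA1-ox roots and 12.8 ± 0.639 FPKM in CCA1-ox shoots (−2.15). LNK2, a coactivator of the RVE factors, averaged 12.8 ± 0.586 FPKM in CCA1-ox roots and 52.7 ± 1.601 FPKM in CCA1-ox shoots (−1.96). PRR9, a repressor of CCA1, was the gene that rose, with 8.65 ± 1.47 FPKM in CCA1-ox roots and 5.48 ± 0.326 FPKM in CCA1-ox shoots (0.56). Among 14 evening genes tested of 17 listed, 2 rose and 9 fell, with a median of −0.29, against 0.0704 in WT. TOC1, the evening repressor of CCA1, stood at 15.7, 16.5 and 16.95 FPKM in CCA1-ox roots, against 16.6, 15.8 and 16.7 FPKM in CCA1-ox shoots. These TOC1 values overlapped between the organs and the test did not pass (log2 fold change −0.00028, adjusted p = 0.996). With libraries scaled to summed fragments, TOC1 was called higher in roots (0.16, adjusted p = 0.0083). CHE, a TCP factor that represses CCA1, was lower in roots, at 10.2 ± 0.754 FPKM in CCA1-ox roots and 39.03 ± 0.609 FPKM in CCA1-ox shoots (−1.83).

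Photosynthesis genes made the deepest difference between the organs, and every one of them that was tested was lower in roots. All 18 light harvesting genes, which encode the chlorophyll-binding antenna proteins, fell by at least 2-fold, with a median log2 fold change of −9.49. Their summed level was 129.9 to 144 FPKM in CCA1-ox roots and 53032 to 53242 FPKM in CCA1-ox shoots. LHCB1.3 (AT1G29930, chromosome 1, 10477885 to 10479114), an antenna protein of photosystem II, had 0.791, 0.633 and 0.729 FPKM in CCA1-ox roots, against 11161, 11076 and 10869 FPKM in CCA1-ox shoots. It was the most abundant antenna transcript in shoots and had the most negative log2 fold change of FPKM + 1 (log2 fold change −12.65, SE 0.0356, adjusted p = 7.83e-16). Without the pseudocount, genes such as RBCS1A have a lower ratio. LHCB1.5 kept a higher root level than the other antenna genes, with 71.1, 66.3 and 60.1 FPKM in CCA1-ox roots, against 8268, 8396 and 8496 FPKM in CCA1-ox shoots (−6.97). LHCB4.3 was the antenna gene with the smallest difference, at 0.759 ± 0.106 FPKM in CCA1-ox roots and 3.49 ± 0.572 FPKM in CCA1-ox shoots (−1.35). The LHCB1 copies are close to identical in sequence, so their separate levels are uncertain.

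The photosystem and electron transport genes fell in 31 of 31 cases, with a median of −8.62. PSAG, a subunit of photosystem I, averaged 0.197 ± 0.0765 FPKM in CCA1-ox roots and 2095 ± 48.96 FPKM in CCA1-ox shoots (−10.78). PSBR, a photosystem II subunit, averaged 48.9 ± 4.22 FPKM in CCA1-ox roots and 3563 ± 29.001 FPKM in CCA1-ox shoots (−6.16). The Calvin cycle, which fixes carbon dioxide, fell in 18 of 18 genes (median −8.98). RBCS1A, the main small subunit of Rubisco, had 0.317, 0.246 and 0.112 FPKM in CCA1-ox roots, against 7282, 7356 and 7086 FPKM in CCA1-ox shoots (log2 fold change −12.53, SE 0.0553, adjusted p = 4.13e-15). No root value came near a shoot value. RCA, the Rubisco activase, averaged 3.53 ± 0.294 FPKM in CCA1-ox roots and 3055 ± 21.9 FPKM in CCA1-ox shoots (−9.4004). TKL1, a transketolase, fell least of the list, with 146 ± 4.38 FPKM in CCA1-ox roots and 599.9 ± 3.103 FPKM in CCA1-ox shoots (−2.03).

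Chlorophyll synthesis followed the same direction, with 16 of 16 genes lower (median −5.57). PORB, a protochlorophyllide reductase, averaged 0.261 ± 0.0319 FPKM in CCA1-ox roots and 439 ± 2.65 FPKM in CCA1-ox shoots (−8.45). GUN4, a regulator of magnesium chelatase, averaged 0.0406 ± 0.0553 FPKM in CCA1-ox roots and 156 ± 6.901 FPKM in CCA1-ox shoots (−7.24). Photorespiration genes, which recycle the product of oxygenation by Rubisco, fell in 12 of 12 cases (median −4.66). GOX1, a glycolate oxidase, stood at 0.0486 ± 0.0421 FPKM in CCA1-ox roots and 630.5 ± 5.97 FPKM in CCA1-ox shoots (−9.23). Starch genes fell in 27 of 28 cases, 23 by at least 2-fold (median −2.27). BAM3, a chloroplast beta-amylase of starch breakdown, averaged 0.0637 ± 0.0435 FPKM in CCA1-ox roots and 87.8 ± 3.01 FPKM in CCA1-ox shoots (−6.38), and PGI1, the plastid phosphoglucose isomerase, was the gene that rose, with 110.3 ± 2.19 FPKM in CCA1-ox roots and 53.5 ± 0.616 FPKM in CCA1-ox shoots (1.03).

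Plastid enzymes of root type moved the other way. Of 10 genes listed for plastids that import sugar and reduce nitrite without light, 8 rose and 2 fell, with a median of 1.59. RFNR2, the root ferredoxin reductase, had 177, 178 and 177 FPKM in CCA1-ox roots, against 30.2, 30.7 and 30.2 FPKM in CCA1-ox shoots (log2 fold change 2.51, SE 0.0257, adjusted p = 4.90e-13). Its partner FD3, the root ferredoxin, averaged 204 ± 3.27 FPKM in CCA1-ox roots and 37.2 ± 1.58 FPKM in CCA1-ox shoots (2.42). GPT1, which carries glucose 6-phosphate into plastids, averaged 81.8 ± 2.75 FPKM in CCA1-ox roots and 20.6 ± 1.05 FPKM in CCA1-ox shoots (1.94). In both RFNR2 and FD3 every root library lay above every shoot library.

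The upstream sequences of 2 antenna genes are given here because LHCB1 promoters are a known place of CCA1 binding. LHCB1.3 had the most negative log2 fold change of the antenna genes (−12.65), and LHCB1.1 had −11.07. The 300 bases before the annotated gene start were read from RefSeq TAIR10.1, whose gene starts and ends matched the deposited table for 32532 of 32548 genes, and both strands were searched for the CCA1-binding site written as AAAAATCT or AACAATCT. Capitals mark a match. LHCB1.1 lies at chr1:10475970-10476269, minus strand, and LHCB1.3 at chr1:10477585-10477884, plus strand.
LHCB1.1: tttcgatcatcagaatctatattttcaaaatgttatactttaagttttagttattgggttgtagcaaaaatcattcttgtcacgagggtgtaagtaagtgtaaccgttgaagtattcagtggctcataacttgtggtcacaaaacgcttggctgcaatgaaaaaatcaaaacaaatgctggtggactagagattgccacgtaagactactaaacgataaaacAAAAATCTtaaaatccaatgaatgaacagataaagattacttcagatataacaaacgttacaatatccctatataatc
LHCB1.3: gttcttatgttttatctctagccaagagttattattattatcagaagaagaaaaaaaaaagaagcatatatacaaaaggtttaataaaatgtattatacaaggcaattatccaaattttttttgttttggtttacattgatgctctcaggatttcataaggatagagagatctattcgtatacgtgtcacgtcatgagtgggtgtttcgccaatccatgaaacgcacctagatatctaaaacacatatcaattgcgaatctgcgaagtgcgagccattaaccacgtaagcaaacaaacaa
The window of LHCB1.1 holds a match that starts 78 bases before the gene, and that of LHCB1.3 holds none. A site inside the annotated gene or further upstream would be missed, since only these 300 bases were searched. LHCB1.2, which is not printed, had a log2 fold change of −11.94, and its window holds none either. Of the 18 antenna promoters 3 held a match, 16.7%, against 9.88% of the 20366 genes tested that have such a window. Among genes at least 2-fold lower in CCA1-ox roots the share was 10.1%, and among genes at least 2-fold higher it was 8.77%. The G-box CACGTG was found in 4 of the 18, 22.2%, against 7.69% of all. The evening element AAAATATCT was found in none of the 18 and in 2.81% of all. A match here is a stretch of letters and was not tested as a binding site.

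**Figure D1:**
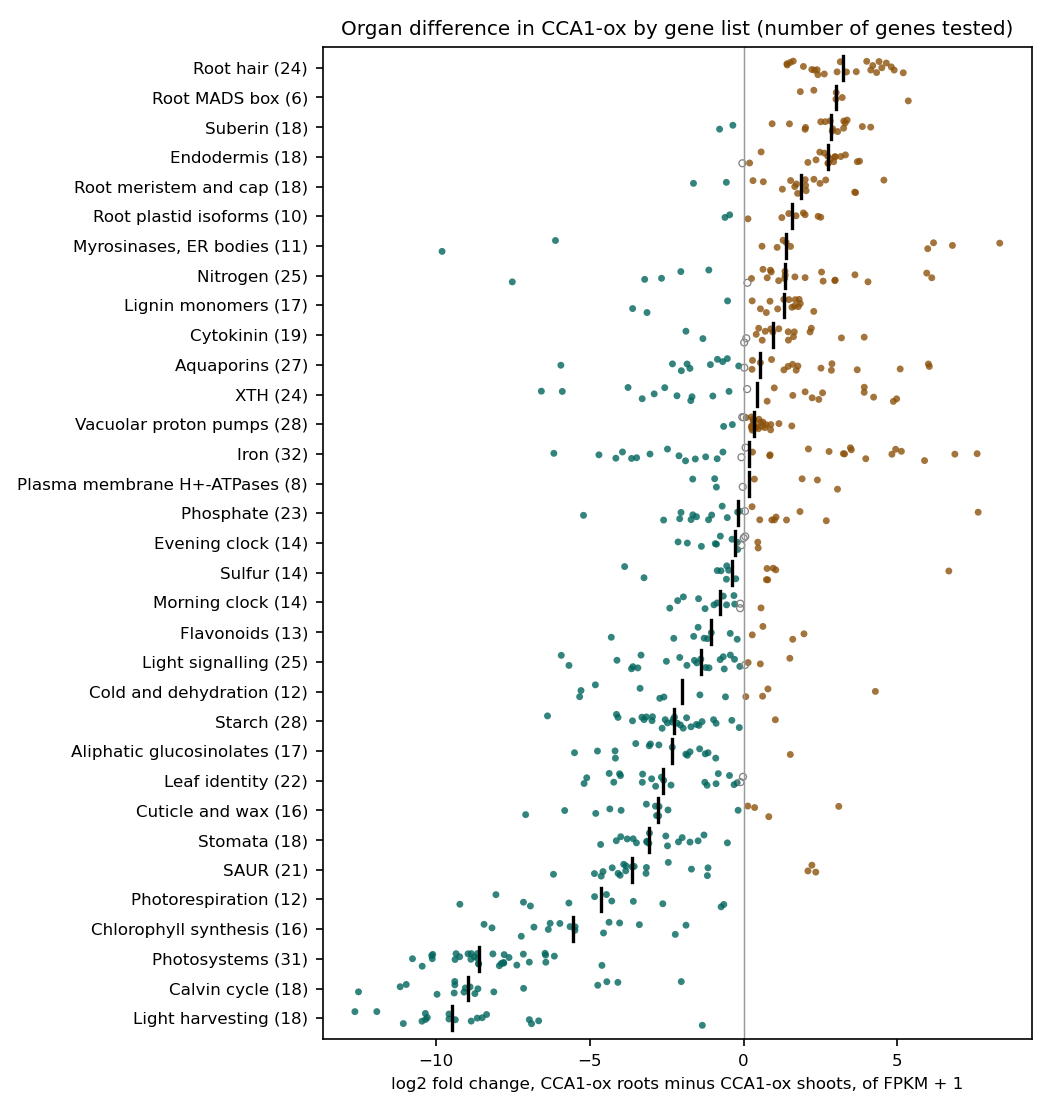
Log2 fold change of FPKM + 1, CCA1-ox roots minus CCA1-ox shoots, for every tested gene of 33 lists (1 point per gene, brown higher in roots, green lower, open circles not called, black bar the list median). Root hair genes sit highest, with a median of 3.24, and light harvesting genes lowest, with a median of −9.49.

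Genes that build the leaf surface and leaf shape were lower in roots. All 18 genes of the stomatal lineage and guard cells fell, 17 by at least 2-fold, and 9 had no fragment in any root library. The list median was −3.08. As a log2 ratio of mean FPKM without pseudocount (floored ratio), it was −7.69. In this ratio a mean below the level of 3 fragments over the 3 libraries of an organ, 0 included, was raised to that level. STOMAGEN, a peptide from the mesophyll that promotes stomata, had 0 FPKM in all 3 CCA1-ox root libraries, against 25.2, 23.5 and 23.9 FPKM in CCA1-ox shoots, so it was at least 828-fold lower in roots. TMM, a receptor of stomatal patterning, averaged 0.141 ± 0.05802 FPKM in CCA1-ox roots and 17.3 ± 1.055 FPKM in CCA1-ox shoots (−4.001). Of 22 shoot meristem and leaf identity genes, 20 fell and none rose (median −2.64, floored ratio −3.13). YAB1, a factor for the lower side of leaves, had 0 FPKM in all 3 CCA1-ox root libraries, against 33.3, 33.4 and 33.7 FPKM in CCA1-ox shoots, so it was at least 1425-fold lower in roots. ATML1, a factor of shoot epidermis identity, averaged 1.12 ± 0.188 FPKM in CCA1-ox roots and 42.9 ± 0.214 FPKM in CCA1-ox shoots (−4.38). Cuticle and wax genes fell in 12 and rose in 4 of 16 cases (median −2.799), beside 41.1% lower and 45.2% higher over all genes tested. KCS6, which elongates fatty acids for wax, averaged 1.796 ± 0.12004 FPKM in CCA1-ox roots and 157 ± 2.86 FPKM in CCA1-ox shoots (−5.82). CER4, which makes primary alcohols, was the member at least 2-fold higher in roots, at 8.08 ± 0.758 FPKM in CCA1-ox roots and 0.0624 ± 0.0597 FPKM in CCA1-ox shoots (3.09).

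Root hair genes rose without exception. All 24 listed genes were at least 2-fold higher in CCA1-ox roots, and 10 of them had no fragment in any CCA1-ox shoot library. Their median log2 fold change was 3.24, and their median floored ratio 8.74. Their summed level was 339 to 347 FPKM in CCA1-ox roots and 13.3 to 15.3 FPKM in CCA1-ox shoots. EXPA7, an expansin that loosens the wall of growing hairs, had 24.4, 24.6 and 22.9 FPKM in CCA1-ox roots, against 0 FPKM in all 3 CCA1-ox shoot libraries, and was at least 1002-fold higher in roots. PRP3, a proline-rich wall protein of hairs, had 37.5, 37.5 and 37.98 FPKM in CCA1-ox roots, against 0.158, 0 and 0.02103 FPKM in CCA1-ox shoots (log2 fold change 5.19, SE 0.0688, adjusted p = 2.37e-12). RHS13, another gene of the hair cell, had 30.4, 27.4 and 28.6 FPKM in CCA1-ox roots, against 0 FPKM in all 3 CCA1-ox shoot libraries, and was at least 876-fold higher. CSLD3, a cellulose synthase-like protein that keeps hairs intact, was the most abundant of them in shoots, with 34.9 ± 1.18 FPKM in CCA1-ox roots and 10.7 ± 0.838 FPKM in CCA1-ox shoots (1.61).

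Upstream sequences of 4 of these genes are given because their promoters share a known motif, the root hair element. Capitals mark the matches. EXPA7 lies at chr1:4276205-4276504, plus strand, PRP3 at chr3:23182422-23182721, plus strand, LRX1, a leucine-rich extensin of root hairs, at chr1:4069692-4069991, plus strand, and RHS13 at chr4:993040-993339, minus strand, all on RefSeq TAIR10.1.
EXPA7: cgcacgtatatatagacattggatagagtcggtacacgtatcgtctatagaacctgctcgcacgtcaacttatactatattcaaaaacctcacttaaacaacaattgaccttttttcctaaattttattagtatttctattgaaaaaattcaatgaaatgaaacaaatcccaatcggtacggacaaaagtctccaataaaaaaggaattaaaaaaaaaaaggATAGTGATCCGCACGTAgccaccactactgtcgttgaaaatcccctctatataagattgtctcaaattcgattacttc
PRP3: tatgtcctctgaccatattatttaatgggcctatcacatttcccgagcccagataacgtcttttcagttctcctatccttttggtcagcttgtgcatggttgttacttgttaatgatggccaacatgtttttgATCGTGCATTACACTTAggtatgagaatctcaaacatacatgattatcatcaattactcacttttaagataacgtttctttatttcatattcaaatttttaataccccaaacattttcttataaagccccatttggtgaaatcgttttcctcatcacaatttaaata
LRX1: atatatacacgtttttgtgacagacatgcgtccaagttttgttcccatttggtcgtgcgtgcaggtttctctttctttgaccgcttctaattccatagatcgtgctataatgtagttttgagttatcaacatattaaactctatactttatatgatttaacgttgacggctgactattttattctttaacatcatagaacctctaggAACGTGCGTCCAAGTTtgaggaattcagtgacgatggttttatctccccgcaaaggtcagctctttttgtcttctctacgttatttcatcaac
RHS13: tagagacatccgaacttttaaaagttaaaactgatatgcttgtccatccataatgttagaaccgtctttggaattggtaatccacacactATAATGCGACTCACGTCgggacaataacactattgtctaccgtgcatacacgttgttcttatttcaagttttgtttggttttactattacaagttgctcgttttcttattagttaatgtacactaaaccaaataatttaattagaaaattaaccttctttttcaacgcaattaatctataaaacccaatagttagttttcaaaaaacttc
The element was found on either strand in 8 of the 24 root hair promoters, 33.3%, against 0.908% of all 20366 promoters of tested genes. Among genes at least 2-fold higher in CCA1-ox roots the share was 1.67%, and among genes at least 2-fold lower it was 0.78%. The matches start 78 bases before EXPA7, 167 before PRP3, 93 before LRX1 and 210 before RHS13. The other 4 promoters with a match belong to LRX2, PRP1, EXPA18 and RHS18. The motif was defined in earlier work on promoters of such genes, EXPA7 and EXPA18 among them, so its share in this list is a description.

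The inner barrier of the root was also marked. Of 18 endodermis and Casparian strip genes 17 rose and none fell, with a median of 2.75. CASP1, which scaffolds the Casparian strip in the membrane, had 173, 177 and 164 FPKM in CCA1-ox roots, against 13.2, 9.34 and 12.6 FPKM in CCA1-ox shoots (log2 fold change 3.77, SE 0.104, adjusted p = 3.87e-10). PER64, a peroxidase that lignifies the strip, averaged 75.9 ± 2.201 FPKM in CCA1-ox roots and 7.62 ± 0.629 FPKM in CCA1-ox shoots (3.16). SCR, a transcription factor that specifies the endodermis and also acts in shoots, stood at 16.97 ± 1.03 FPKM in CCA1-ox roots and 17.5 ± 0.612 FPKM in CCA1-ox shoots and did not pass the test (−0.042, adjusted p = 0.461). Suberin genes rose in 16 and fell in 2 of 18 cases (median 2.85). CYP86A1, a fatty acid hydroxylase of suberin synthesis, had 135, 145 and 134 FPKM in CCA1-ox roots, against 12.3, 11.99 and 13.2 FPKM in CCA1-ox shoots (log2 fold change 3.37, SE 0.0451, adjusted p = 2.55e-12). FAR4, which makes fatty alcohols for suberin, averaged 23.7 ± 0.117 FPKM in CCA1-ox roots and 0.412 ± 0.0537 FPKM in CCA1-ox shoots (4.13). The members that fell were FAR1 (−0.78) and KCS20 (−0.35), enzymes of very long chain lipids that also serve other lipids.

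Some transcripts of the barrier were present in the shoot libraries. The summed level of the endodermis list was 845 to 871 FPKM in CCA1-ox roots and 121 to 128 in CCA1-ox shoots, against 637 to 646 in WT roots and 72.3 to 75.3 in WT shoots. Root hair genes were at 14.2 to 15.6 FPKM in WT shoots, a range that overlaps that of CCA1-ox shoots. The root meristem and cap list had 38.8 to 40.4 FPKM in CCA1-ox shoots, with 5 of its 18 tested genes at 0 there, among them the root cap factor SMB and the stem cell factor PLT1. Whether hypocotyl or root tissue in the shoot samples contributed to these levels was not tested.

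Growth zones of the root were likewise higher. In the root meristem and cap list 16 of 18 genes rose and 2 fell (median 1.88, floored ratio 6.52). CEL5, a cellulase of the root cap, averaged 12.4 ± 0.592 FPKM in CCA1-ox roots and 0.0948 ± 0.0331 FPKM in CCA1-ox shoots (3.61). BRN1, a NAC factor of the cap, averaged 5.71 ± 0.596 FPKM in CCA1-ox roots and 0.0532 ± 0.0362 FPKM in CCA1-ox shoots (2.67). The genes that fell were ACR4 (−1.63), a receptor kinase that also acts in shoot epidermis, and AT4G26540 (−0.56). All 6 root MADS box factors tested were at least 2-fold higher (median 3.01, floored ratio 6.63, with AGL17 at 0 in shoots). AGL14, which acts in auxin transport in the root, had 45.7, 42.8 and 40.97 FPKM in CCA1-ox roots, against 0.166, 0.0724 and 0 FPKM in CCA1-ox shoots (log2 fold change 5.36, SE 0.0732, adjusted p = 2.89e-12).

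Mineral uptake lists held genes of both directions, as did all genes tested, of which 45.2% were higher and 41.1% lower in roots. Nitrogen genes rose in 19 and fell in 5 of 25 cases (median 1.33). NRT1.5, which loads nitrate into the xylem, had 960.4, 1002 and 979.9 FPKM in CCA1-ox roots, against 12.9, 13.8 and 12.7 FPKM in CCA1-ox shoots (log2 fold change 6.12, SE 0.0344, adjusted p = 1.60e-14). AMT1;3, an ammonium uptake transporter, had 95.9, 95.7 and 91.5 FPKM in CCA1-ox roots, against 0.581, 0.4599 and 0.569 FPKM in CCA1-ox shoots (log2 fold change 5.96, SE 0.0506, adjusted p = 1.54e-13). NRT3.1, the partner protein of high-affinity nitrate transporters, averaged 67.1 ± 0.9798 FPKM in CCA1-ox roots and 3.13 ± 0.0928 FPKM in CCA1-ox shoots (4.05). All 3 were transcripts of the root, with no overlap between the organs. Assimilation divided by isoform. GLN1;2, a cytosolic glutamine synthetase, averaged 1483 ± 36.6 FPKM in CCA1-ox roots and 119.6 ± 1.63 FPKM in CCA1-ox shoots (3.62), while GLN2, the chloroplast form, averaged 69.3 ± 1.92 FPKM in CCA1-ox roots and 654 ± 8.04 FPKM in CCA1-ox shoots (−3.22). GLT1, the glutamate synthase that uses NADH, averaged 354 ± 21.2 FPKM in CCA1-ox roots and 87.7 ± 1.37 FPKM in CCA1-ox shoots (1.999), while GLU1, the ferredoxin form of leaves, averaged 0.241 ± 0.0295 FPKM in CCA1-ox roots and 228 ± 3.13 FPKM in CCA1-ox shoots (−7.53).

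Phosphate genes rose in 9 and fell in 13 of 23 cases, with a median of −0.196, against 0.49 in WT. PHT1;1, a phosphate uptake transporter, had 210.3, 224 and 213 FPKM in CCA1-ox roots, against 0.109, 0.108 and 0.0638 FPKM in CCA1-ox shoots (log2 fold change 7.63, SE 0.0441, adjusted p = 1.87e-14). PHO1, which exports phosphate to the xylem, averaged 172 ± 4.83 FPKM in CCA1-ox roots and 25.8 ± 0.382 FPKM in CCA1-ox shoots (2.69). Those that fell include PHT2;1, a chloroplast phosphate transporter at 2.43 ± 0.346 FPKM in CCA1-ox roots and 126 ± 0.328 FPKM in CCA1-ox shoots (−5.21), and the phosphate sensor SPX1 at 9.09 ± 0.115 FPKM in CCA1-ox roots and 32.1 ± 0.725 FPKM in CCA1-ox shoots (−1.71). Sulfur genes rose in 6 and fell in 8 of 14 cases (median −0.37, WT 0.67). SULTR1;2, the main sulfate uptake transporter, had 139.8, 146 and 144 FPKM in CCA1-ox roots, against 0.433, 0.432 and 0.361 FPKM in CCA1-ox shoots (log2 fold change 6.68, SE 0.0441, adjusted p = 3.73e-14). SULTR2;1, a sulfate transporter of the vasculature, averaged 8.27 ± 0.177 FPKM in CCA1-ox roots and 86.7 ± 0.878 FPKM in CCA1-ox shoots (−3.24).

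Potassium genes rose in 5 and fell in 5 of 10 cases, near the shares over all genes. KC1, a regulatory subunit of root potassium channels, had 45.5, 44.3 and 47.4 FPKM in CCA1-ox roots, against 1.29, 1.18 and 1.48 FPKM in CCA1-ox shoots (log2 fold change 4.34, SE 0.0599, adjusted p = 3.12e-12). SKOR, which releases potassium into the xylem, averaged 12.2 ± 0.542 FPKM in CCA1-ox roots and 0.408 ± 0.103 FPKM in CCA1-ox shoots (3.23). KAT1, a guard cell channel, had 0 FPKM in all 3 CCA1-ox root libraries, against 13.2, 12.5 and 12.8 FPKM in CCA1-ox shoots, and was at least 1347-fold lower in roots. AKT2, a channel of the phloem, averaged 0.0825 ± 0.0181 FPKM in CCA1-ox roots and 13.9 ± 0.667 FPKM in CCA1-ox shoots (−3.78).

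Iron genes rose in 16 and fell in 14 of 32 cases, near the shares over all genes. Genes of uptake at the root surface were on the root side. IRT1, the iron transporter of the root surface, had 80.98, 83.5 and 79.7 FPKM in CCA1-ox roots, against 0.405, 0.4499 and 0.328 FPKM in CCA1-ox shoots (log2 fold change 5.89, SE 0.0519, adjusted p = 1.93e-13). F6'H1, which makes the coumarins that mobilise iron, had 194, 192 and 191 FPKM in CCA1-ox roots, against 0 FPKM in all 3 CCA1-ox shoot libraries, and was at least 10585-fold higher in roots. ABCG37, which exports them, averaged 176 ± 9.05 FPKM in CCA1-ox roots and 0.512 ± 0.116 FPKM in CCA1-ox shoots (6.87). FIT, the factor that drives root uptake genes, averaged 45.1 ± 2.04 FPKM in CCA1-ox roots and 0.631 ± 0.0792 FPKM in CCA1-ox shoots (4.82). Among related factors that respond to iron deficiency, BHLH100 (−4.16), BHLH38 (−2.105) and BHLH101 (−1.57) were lower in roots and BHLH39 was higher (0.29). OPT3, which loads iron into the phloem, averaged 39.6 ± 1.41 FPKM in CCA1-ox roots and 149 ± 0.879 FPKM in CCA1-ox shoots (−1.89).

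**Figure D2:**
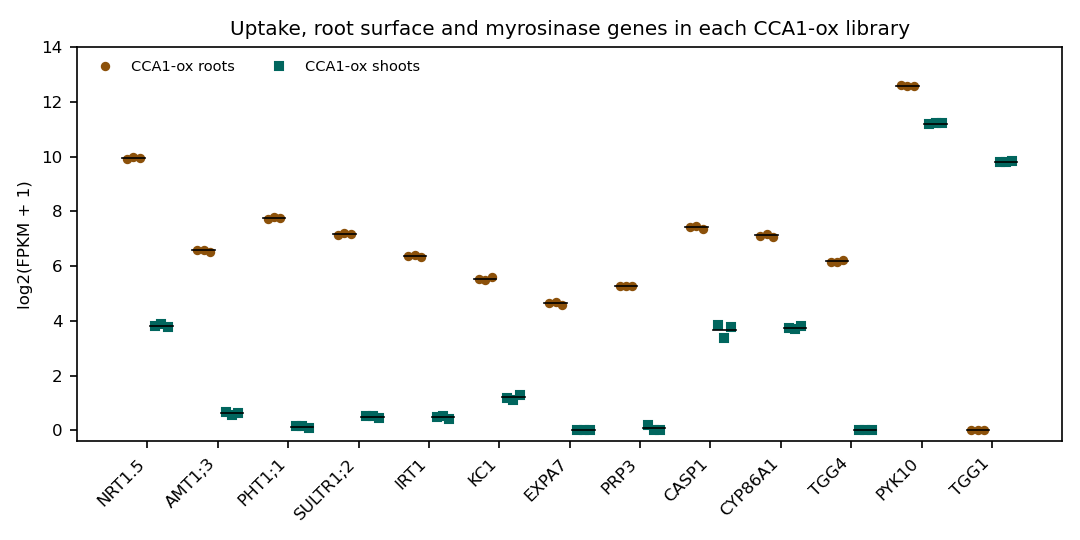
Log2(FPKM + 1) of 13 uptake, root surface, barrier and myrosinase genes in each CCA1-ox library (brown circles roots, green squares shoots, black bars the means of 3 libraries). The root libraries lie above the shoot libraries for every gene shown except TGG1, which had 0 FPKM in all 3 root libraries.

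Proton pumps of the plasma membrane differed by isoform. Of 8 AHA genes tested of 11, 4 rose and 3 fell, near the shares over all genes tested (45.2% higher, 41.1% lower). AHA6, AHA9 and AHA10 were below the level needed. AHA2 (AT4G30190, chromosome 4, 14770395 to 14776247), the main pump of roots, had 656, 703 and 692 FPKM in CCA1-ox roots, against 81.3, 80.1 and 82.97 FPKM in CCA1-ox shoots. All root libraries stood far above all shoot libraries (log2 fold change 3.05, SE 0.0313, adjusted p = 4.89e-13). AHA1, which is abundant in both organs, had 172, 182 and 179 FPKM in CCA1-ox roots, against 138, 140.2 and 139 FPKM in CCA1-ox shoots, a smaller difference without overlap (log2 fold change 0.35, SE 0.0283, adjusted p = 1.55e-06). AHA7 averaged 10.6 ± 0.416 FPKM in CCA1-ox roots and 1.19 ± 0.0399 FPKM in CCA1-ox shoots (2.399) and AHA4 6.48 ± 0.0617 FPKM in CCA1-ox roots and 1.003 ± 0.0433 FPKM in CCA1-ox shoots (1.901). On the shoot side, AHA3 averaged 11.3 ± 0.585 FPKM in CCA1-ox roots and 37.9 ± 1.15 FPKM in CCA1-ox shoots (−1.66), AHA11 16.6 ± 1.24 FPKM in CCA1-ox roots and 32.8 ± 0.402 FPKM in CCA1-ox shoots (−0.94) and AHA5 3.28 ± 0.318 FPKM in CCA1-ox roots and 6.91 ± 0.523 FPKM in CCA1-ox shoots (−0.89). AHA8 stood at 4.94 ± 0.245 FPKM in CCA1-ox roots and 5.07 ± 0.248 FPKM in CCA1-ox shoots and did not pass (−0.031, adjusted p = 0.654). The summed level of the listed pumps was 880.1 to 940.4 FPKM in CCA1-ox roots and 303 to 310.4 FPKM in CCA1-ox shoots, and AHA2 made up most of the root value. Phosphatases of clade D, which switch these pumps off, rose in 6 and fell in 3 of 9 cases, beside the same shares over all genes. The deepest fall was that of AT5G02760, at 0.214 ± 0.0362 FPKM in CCA1-ox roots and 32.5 ± 0.664 FPKM in CCA1-ox shoots (−4.79), and the largest rise that of AT5G06750, at 20.9 ± 0.284 FPKM in CCA1-ox roots and 5.13 ± 0.275 FPKM in CCA1-ox shoots (1.84).

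**Figure D3:**
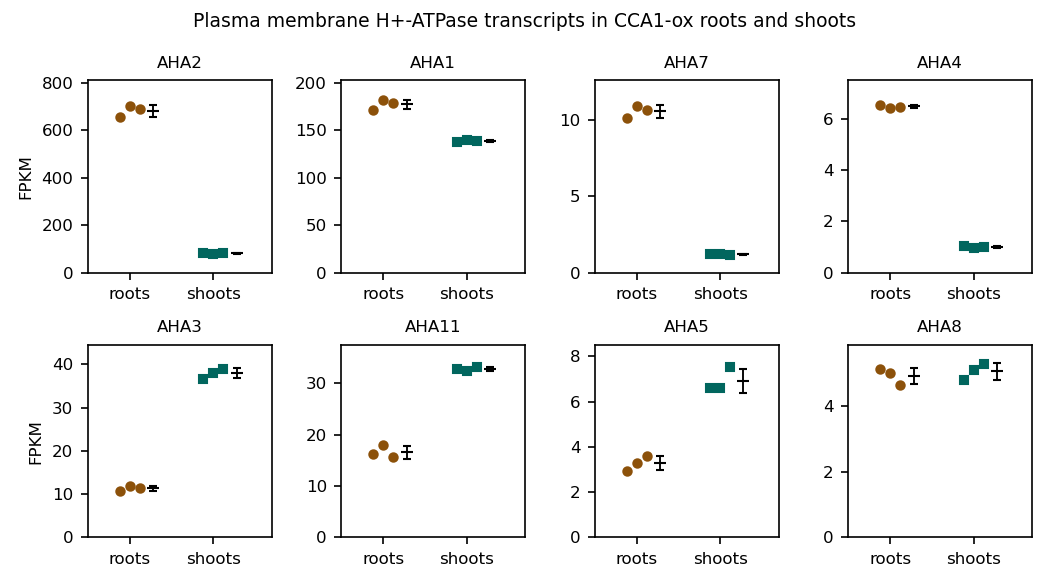
FPKM of the 8 plasma membrane H+-ATPase genes tested, in each CCA1-ox library (brown circles roots, green squares shoots, black bars mean ± SD of 3 libraries, a separate axis from 0 for each gene). AHA2, AHA1, AHA7 and AHA4 were higher in roots, AHA3, AHA11 and AHA5 lower, and AHA8 did not pass the test.

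Vacuolar proton pumps shifted together by a small amount. Of 28 subunits tested 24 rose and 2 fell, but only 2 changed by at least 2-fold, and the median was 0.34, beside 0.046 over all genes. VHA-G2, a subunit of the stalk, averaged 118 ± 4.24 FPKM in CCA1-ox roots and 39.1 ± 1.18 FPKM in CCA1-ox shoots (1.57). VHA-E1, another stalk subunit, averaged 264 ± 4.45 FPKM in CCA1-ox roots and 171 ± 1.54 FPKM in CCA1-ox shoots (0.63). AVP1, the vacuolar pyrophosphatase, went the other way, at 166 ± 1.86 FPKM in CCA1-ox roots and 261 ± 2.48 FPKM in CCA1-ox shoots (−0.65). Exchangers that spend the gradient rose in 8 and fell in 3 of 12 cases (median 0.596), beside 45.2% higher and 41.1% lower over all genes tested. CAX3, a calcium/proton exchanger, averaged 25.3 ± 0.302 FPKM in CCA1-ox roots and 3.62 ± 0.255 FPKM in CCA1-ox shoots (2.51), and CAX1, the related exchanger of leaves, 11.6 ± 0.197 FPKM in CCA1-ox roots and 64.2 ± 0.376 FPKM in CCA1-ox shoots (−2.38).

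Water channel and wall-loosening families held members of both directions, as did all genes tested (45.2% higher, 41.1% lower). Aquaporins rose in 16 and fell in 10 of 27 cases (median 0.54), and their summed level was 5583 to 5800.01 FPKM in CCA1-ox roots and 5458 to 5700.1 FPKM in CCA1-ox shoots, which overlap. TIP4;1, a channel of the vacuole, averaged 87.3 ± 2.58 FPKM in CCA1-ox roots and 0.342 ± 0.0492 FPKM in CCA1-ox shoots (6.04), and PIP2;6, a channel of the plasma membrane, 1.57 ± 0.04005 FPKM in CCA1-ox roots and 158 ± 0.176 FPKM in CCA1-ox shoots (−5.95). Expansins rose in 8 and fell in 14 of 23 cases. EXPA3 averaged 0.7202 ± 0.0825 FPKM in CCA1-ox roots and 64.7 ± 0.888 FPKM in CCA1-ox shoots (−5.26), and EXPA9 64.3 ± 2.25 FPKM in CCA1-ox roots and 10.3 ± 0.796 FPKM in CCA1-ox shoots (2.53). Xyloglucan endotransglucosylases (XTH), which cut and rejoin wall polymers, rose in 12 and fell in 11 of 24 cases. XTH18 averaged 46.97 ± 1.26 FPKM in CCA1-ox roots and 0.524 ± 0.0856 FPKM in CCA1-ox shoots (4.98), and XTH7 1.02 ± 0.0743 FPKM in CCA1-ox roots and 193 ± 1.89 FPKM in CCA1-ox shoots (−6.58).

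Auxin genes leaned to the shoot. SAUR genes, small auxin-induced genes of which several activate AHA pumps by holding back clade D phosphatases, rose in 3 and fell in 18 of 21 cases, and 10 had no fragment in any root library. Their median was −3.63, and their median floored ratio −8.18. SAUR20 had 0 FPKM in all 3 CCA1-ox root libraries, against 24.9, 23.3 and 23.4 FPKM in CCA1-ox shoots, and was at least 500.4-fold lower in roots. SAUR16 averaged 0.761 ± 0.143 FPKM in CCA1-ox roots and 49.9 ± 1.72 FPKM in CCA1-ox shoots (−4.86). The members that rose were SAUR72 (2.35), SAUR36 (2.22) and SAUR41 (2.09). Auxin carriers rose in 5 and fell in 8 of 13 cases (median −0.76), beside 45.2% higher and 41.1% lower over all genes tested. PIN2, which moves auxin through the root epidermis, had 50.7, 54.2 and 50.7 FPKM in CCA1-ox roots, against 0.751, 0.9901 and 0.742 FPKM in CCA1-ox shoots (log2 fold change 4.86, SE 0.0654, adjusted p = 2.63e-12). PIN7, another efflux carrier, averaged 15.1 ± 0.749 FPKM in CCA1-ox roots and 68.7 ± 2.1004 FPKM in CCA1-ox shoots (−2.12). Auxin synthesis and Aux/IAA genes rose in 9 and fell in 18 of 30 cases (median −0.62). IAA28, a repressor of lateral roots, averaged 84.5 ± 1.895 FPKM in CCA1-ox roots and 9.67 ± 0.9997 FPKM in CCA1-ox shoots (3.01), and IAA29 0.437 ± 0.127 FPKM in CCA1-ox roots and 10.4 ± 0.101 FPKM in CCA1-ox shoots (−2.99).

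Cytokinin genes leaned to the root. They rose in 15 and fell in 2 of 19 cases (median 0.95, floored ratio 1.53), beside 45.2% higher and 41.1% lower over all genes tested. CYP735A2, which makes trans-zeatin forms, had 25.1, 23.4 and 24.4 FPKM in CCA1-ox roots, against 0.635, 0.652 and 0.721 FPKM in CCA1-ox shoots (log2 fold change 3.92, SE 0.0574, adjusted p = 4.55e-12). IPT5, an enzyme that starts cytokinin synthesis, averaged 4.21 ± 0.294 FPKM in CCA1-ox roots and 0.133 ± 0.0428 FPKM in CCA1-ox shoots (2.201). The members that fell were CKX6 (−1.33) and CKX7 (−1.88), which degrade cytokinin.

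Light signalling genes fell in 21 and rose in 3 of 25 cases (median −1.39), beside 41.1% lower and 45.2% higher over all genes tested. PIF4, a factor that promotes stem growth and is repressed by phytochrome, had 0.181, 0.264 and 0.191 FPKM in CCA1-ox roots, against 72.5, 73.5 and 73.3 FPKM in CCA1-ox shoots (log2 fold change −5.93, SE 0.0504, adjusted p = 1.54e-13). PHOT2, a blue light receptor that moves chloroplasts, averaged 2.08 ± 0.104 FPKM in CCA1-ox roots and 52.6 ± 1.28 FPKM in CCA1-ox shoots (−4.12). HY5, a factor of light responses, was the member at least 2-fold higher in roots, at 26.4 ± 2.202 FPKM in CCA1-ox roots and 8.68 ± 0.697 FPKM in CCA1-ox shoots (1.502). PHYB, the main red light receptor in light-grown plants, differed little, at 20.07 ± 0.389 FPKM in CCA1-ox roots and 27.5 ± 0.606 FPKM in CCA1-ox shoots (−0.43).

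Sugar genes rose in 15 and fell in 11 of 26 cases, beside 45.2% higher and 41.1% lower over all genes tested. SWEET11, which exports sucrose for phloem loading in leaves, had 0.0242, 0.0674 and 0.187 FPKM in CCA1-ox roots, against 78.6, 77.9 and 76.4 FPKM in CCA1-ox shoots (log2 fold change −6.17, SE 0.0634, adjusted p = 4.90e-13). SUC2, which loads the phloem, averaged 9.71 ± 1.03 FPKM in CCA1-ox roots and 62.99 ± 1.16 FPKM in CCA1-ox shoots (−2.58). CWINV1, a cell wall invertase, had 161, 162 and 153 FPKM in CCA1-ox roots, against 3.46, 2.83 and 3.17 FPKM in CCA1-ox shoots (log2 fold change 5.27, SE 0.0563, adjusted p = 6.24e-13). CINV1, a cytosolic invertase of root growth, averaged 135 ± 1.45 FPKM in CCA1-ox roots and 40.1 ± 1.46 FPKM in CCA1-ox shoots (1.73). SWEET11 and CWINV1 stand at opposite ends, each without overlap between the organs.

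Defence compounds differed by class, beside 45.2% higher and 41.1% lower in roots over all genes tested. Aliphatic glucosinolate genes fell in 16 of 17 cases (median −2.32, floored ratio −2.83). GSTU20, a glutathione transferase of the pathway, averaged 8.798 ± 1.23 FPKM in CCA1-ox roots and 263 ± 4.2996 FPKM in CCA1-ox shoots (−4.76), and MAM3, which elongates methionine, was the member that rose, with 73.5 ± 1.41 FPKM in CCA1-ox roots and 25.04 ± 0.382 FPKM in CCA1-ox shoots (1.52). Indolic glucosinolate genes rose in 9 and fell in 4 of 14 cases, and the 5 that rose by at least 2-fold were the modifying enzymes CYP81F4 (3.32), CYP81F2 (4.64), IGMT1 (4.27) and IGMT2 (5.004) and the factor MYB122 (1.596). Myrosinases, which activate these compounds, and ER body genes rose in 9 and fell in 2 of 11 cases, and the 2 that fell were TGG1 and TGG2. TGG1, the leaf myrosinase, had 0 FPKM in all 3 CCA1-ox root libraries, against 897, 894 and 906 FPKM in CCA1-ox shoots, and was at least 59140.2-fold lower in roots. TGG4, the root myrosinase, had 70.9, 69.8 and 73.4 FPKM in CCA1-ox roots, against 0 FPKM in all 3 CCA1-ox shoot libraries, and was at least 4716-fold higher in roots. PYK10, the beta-glucosidase of ER bodies, was abundant in both organs, with 6186, 6157 and 6129 FPKM in CCA1-ox roots, against 2332, 2364 and 2378 FPKM in CCA1-ox shoots (log2 fold change 1.38, SE 0.0221, adjusted p = 8.07e-12). BGLU21, its close relative, averaged 353 ± 5.66 FPKM in CCA1-ox roots and 0.0996 ± 0.0706 FPKM in CCA1-ox shoots (8.33).

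Lignin monomer genes rose in 14 and fell in 3 of 17 cases (median 1.31), beside 45.2% higher and 41.1% lower over all genes tested. CCOAOMT1, a methyltransferase of lignin synthesis, averaged 476 ± 9.61 FPKM in CCA1-ox roots and 138 ± 1.26 FPKM in CCA1-ox shoots (1.78), while FAH1, which leads to syringyl units and sinapate esters, averaged 7.57 ± 0.603 FPKM in CCA1-ox roots and 74.7 ± 2.07 FPKM in CCA1-ox shoots (−3.15). Flavonoid genes rose in 4 and fell in 9 of 13 cases, with a median of −1.05 (floored ratio −2.21), against 0.27 in WT. MYB12, which activates flavonol genes, averaged 4.98 ± 0.656 FPKM in CCA1-ox roots and 0.5296 ± 0.0236 FPKM in CCA1-ox shoots (1.96), while UGT78D1, which adds rhamnose to flavonols, averaged 0.822 ± 0.0599 FPKM in CCA1-ox roots and 35.1 ± 0.338 FPKM in CCA1-ox shoots (−4.31). Xylem and secondary wall genes rose in 12 and fell in 1 of 14 cases, by a median of 0.57 against 1.395 in WT. IRX9, which builds xylan of secondary walls, averaged 8.54 ± 0.5903 FPKM in CCA1-ox roots and 4.55 ± 0.649 FPKM in CCA1-ox shoots (0.79). Phloem genes fell in 8 and rose in 1 of 11 cases (median −0.58). SEOR1, a filament protein of sieve elements, averaged 13.9 ± 0.542 FPKM in CCA1-ox roots and 31.6 ± 0.852 FPKM in CCA1-ox shoots (−1.13).

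Cold and jasmonate genes were mostly lower in CCA1-ox roots, beside 41.1% lower and 45.2% higher over all genes tested. Cold and dehydration genes fell in 8 and rose in 4 of 12 cases, with a median of −2.01, or −3.26 as a floored ratio, against 0.28 in WT. COR15A, a chloroplast protein of frost tolerance, had 0 FPKM in all 3 CCA1-ox root libraries, against 40.6, 38.7 and 39.1 FPKM in CCA1-ox shoots, and was at least 2171-fold lower in roots. LTI30, a dehydrin, was the member at least 2-fold higher in roots, with 143, 133 and 138 FPKM in CCA1-ox roots, against 5.91, 7.43 and 5.22 FPKM in CCA1-ox shoots (log2 fold change 4.29, SE 0.0938, adjusted p = 7.36e-11). Jasmonate and defence genes fell in 9 and rose in 4 of 13 cases (median −2.07, floored ratio −2.197, WT −0.47). LOX2, the lipoxygenase of jasmonate synthesis in chloroplasts, had 0 FPKM in all 3 CCA1-ox root libraries, against 144, 148 and 142 FPKM in CCA1-ox shoots, and was at least 16339.7-fold lower. AOC2, an allene oxide cyclase of the same path, averaged 0.315 ± 0.0278 FPKM in CCA1-ox roots and 109 ± 4.39 FPKM in CCA1-ox shoots (−6.39).

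Outside the lists, the largest log2 fold change of FPKM + 1 was that of DOX1, an order that rests on the pseudocount of 1, since genes at or near 0 in shoots have larger ratios. DOX1, an alpha-dioxygenase of fatty acids, had 1740.4, 1746 and 1737 FPKM in CCA1-ox roots, against 1.09, 1.296 and 1.38 FPKM in CCA1-ox shoots (log2 fold change 9.59, SE 0.0455, adjusted p = 5.92e-15). It was also among the 10 most abundant transcripts of CCA1-ox roots. EXT3, a wall extensin, had 3837, 3968 and 4288 FPKM in CCA1-ox roots, against 72.7, 68.1 and 67.6 FPKM in CCA1-ox shoots (log2 fold change 5.84, SE 0.0442, adjusted p = 7.85e-14). MLP329, of the major latex protein family, averaged 469 ± 12.7 FPKM in CCA1-ox roots and 0.0579 ± 0.0778 FPKM in CCA1-ox shoots (8.796). AT3G28550 had 388, 420.1 and 472 FPKM in CCA1-ox roots, against 0 FPKM in all 3 CCA1-ox shoot libraries, and was at least 55187-fold higher in roots.

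The organ difference in CCA1-ox was close to that in WT for most genes. The 2 contrasts share no library, and across the 20463 genes the correlation of the log2 fold changes was r = 0.958. Genes are not independent replicates, so this is a description. Among these same genes, which were kept by their level in CCA1-ox only, 4200 were at least 2-fold higher in WT roots (20.5%) and 3840 lower (18.8%). Genes that failed this filter in CCA1-ox enter none of the WT or interaction counts, whatever their WT level. Of the genes at least 2-fold higher in CCA1-ox roots, 3422 were so in WT as well, 87.9% of the CCA1-ox list and 81.5% of the WT list. Of those at least 2-fold lower, 3394 were shared, 86.6% of the CCA1-ox list and 88.4% of the WT list. The difference between the 2 organ differences, CCA1-ox minus WT, was tested as an interaction in a fit to all 12 libraries. It was called for 10495 genes (51.3%), 5641 with a higher value in CCA1-ox (27.6%) and 4854 with a lower one (23.7%). This split depends on scaling: 53.7% of the calls were higher as deposited, and 28.9% when each library was scaled to its summed fragments, which gave 3098 higher and 7624 lower. Interactions of at least 1 on the log2 scale were fewer and mostly negative, 209 higher and 947 lower.

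Several abundant root transcripts lost much of their organ difference in CCA1-ox. DR4, a drought-repressed protein, averaged 1469 ± 24.9 FPKM in CCA1-ox roots and 653 ± 23.2 FPKM in CCA1-ox shoots, against 1342 ± 34.2 FPKM in WT roots and 6.42 ± 0.984 FPKM in WT shoots. Its organ difference was 1.17 in CCA1-ox and 7.51 in WT (interaction −6.34, SE 0.0974, adjusted p = 2.14e-14). MLP34, another major latex protein, averaged 1316 ± 52.9 FPKM in CCA1-ox roots and 293 ± 4.14 FPKM in CCA1-ox shoots, against 1194 ± 45.6 FPKM in WT roots and 3.07 ± 0.507 FPKM in WT shoots (interaction −6.04, SE 0.0931, adjusted p = 2.14e-14). AT5G37990 had 162, 167 and 167 FPKM in CCA1-ox roots, against 181, 180.3 and 190.3 FPKM in CCA1-ox shoots, with all shoot libraries above all root libraries (log2 fold change −0.15, SE 0.0298, adjusted p = 9.43e-04). This call was lost with quantile normalization (−0.064, adjusted p = 0.11) and in the fit on 12 libraries (adjusted p = 0.16), and with summed fragments the value was 0.014 (adjusted p = 0.66). In WT it averaged 144 ± 4.404 FPKM in WT roots and 1.04 ± 0.399 FPKM in WT shoots (interaction −6.32, SE 0.139, adjusted p = 5.54e-13). PDF2.1, a defensin, averaged 29.1 ± 3.08 FPKM in CCA1-ox roots and 9.82 ± 1.87 FPKM in CCA1-ox shoots, against 259 ± 10.5 FPKM in WT roots and 0.374 ± 0.119 FPKM in WT shoots (interaction −6.08, SE 0.155, adjusted p = 1.89e-12), with a lower root level and a higher shoot level in CCA1-ox than in WT.

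Suberin, indolic glucosinolate and cold genes also had mostly lower interactions in CCA1-ox. Over all genes tested, 27.6% of interactions were called higher in CCA1-ox and 23.7% lower. CYP86A1 averaged 114 ± 0.405 FPKM in WT roots and 0.619 ± 0.176 FPKM in WT shoots, and its interaction was −2.78, SE 0.0922, adjusted p = 2.92e-11. In the suberin list 14 of 18 interactions were lower in CCA1-ox and 2 higher. The endodermis list had 7 lower and 3 higher of 18 (median −0.197), or 6 lower and 5 higher with quantile normalization. Indolic glucosinolate genes had 9 lower and none higher of 14 (median −0.45). CYP81F4 averaged 683 ± 13.48 FPKM in CCA1-ox roots and 67.5 ± 0.983 FPKM in CCA1-ox shoots, against 682 ± 24.2 FPKM in WT roots and 4.62 ± 0.375 FPKM in WT shoots (interaction −3.61, SE 0.0585, adjusted p = 2.68e-14). KIN1, a cold-induced gene, averaged 0.837 ± 0.1297 FPKM in CCA1-ox roots and 1.78 ± 0.349 FPKM in CCA1-ox shoots, against 32.1 ± 2.29 FPKM in WT roots and 0.651 ± 0.0762 FPKM in WT shoots (interaction −4.92, SE 0.129, adjusted p = 2.72e-12). All 12 cold and dehydration genes had a lower interaction, with a median of −1.74, beside 0.038 over all genes. Xylem genes had 12 lower of 14 (median −0.81), and the cold and xylem directions held with quantile normalization and with summed fragments. Root hair genes went the other way, with 17 higher and 1 lower of 24 (median 0.36), 18 and 1 with quantile normalization and 15 and 1 with summed fragments. Photorespiration genes had 10 higher and none lower of 12 (median 0.36), 5 and 1 with quantile normalization and 6 and 0 with summed fragments. The vacuolar pumps did not hold theirs: 15 of 28 interactions were higher and none lower as deposited, against 3 higher and 5 lower with quantile normalization and 2 higher and 6 lower with summed fragments.

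**Figure D4:**
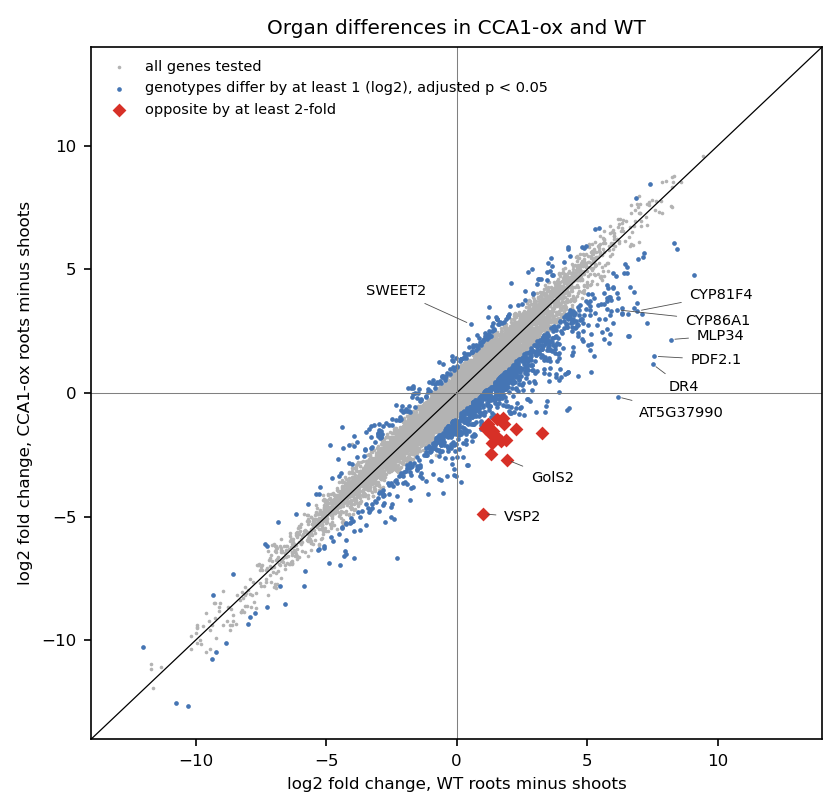
Log2 fold change of FPKM + 1, roots minus shoots, in CCA1-ox (vertical axis) and WT (horizontal axis) for the 20463 genes tested, with the line of equality. Blue points differ between genotypes by at least 1 with a called interaction, and the 17 red diamonds were at least 2-fold lower in CCA1-ox roots and at least 2-fold higher in WT roots.

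No gene was at least 2-fold higher in CCA1-ox roots and at least 2-fold lower in WT roots. The limma count was 0 with adjusted and with unadjusted p under 0.05, and 1 gene with voom on the recovered fragments. In the other direction 17 genes were found (0.0831% of the genes tested), or 42 with voom, 37 with a pseudocount of 0.1 and 4 with a pseudocount of 5. VSP2, a jasmonate-induced storage protein, had 0.111, 0.164 and 0.249 FPKM in CCA1-ox roots, against 33.04, 33.3 and 34.9 FPKM in CCA1-ox shoots, while WT had 4.98, 4.63 and 5.29 FPKM in WT roots, against 2.15, 2.17 and 1.51 FPKM in WT shoots (interaction −5.91, SE 0.122, adjusted p = 2.79e-13). The organs did not overlap in either genotype, and their order was reversed. GolS2, which makes galactinol under stress, averaged 1.57 ± 0.2305 FPKM in CCA1-ox roots and 15.7 ± 0.107 FPKM in CCA1-ox shoots, against 3.86 ± 0.438 FPKM in WT roots and 0.2604 ± 0.0693 FPKM in WT shoots (interaction −4.65, SE 0.115, adjusted p = 1.39e-12). AT5G03545 averaged 46.5 ± 1.801 FPKM in CCA1-ox roots and 143 ± 9.2005 FPKM in CCA1-ox shoots, against 12.3 ± 0.9396 FPKM in WT roots and 0.378 ± 0.198 FPKM in WT shoots (interaction −4.87, SE 0.123, adjusted p = 1.78e-12). PS2, a phosphatase induced by phosphate starvation, averaged 1.87 ± 0.268 FPKM in CCA1-ox roots and 10.8 ± 0.266 FPKM in CCA1-ox shoots, against 1.75 ± 0.153 FPKM in WT roots and 0.0602 ± 0.0405 FPKM in WT shoots (interaction −3.41, SE 0.105, adjusted p = 1.45e-11). XTH24, a wall enzyme, averaged 41.7 ± 0.461 FPKM in CCA1-ox roots and 139.9 ± 1.49 FPKM in CCA1-ox shoots, against 50.3 ± 0.0941 FPKM in WT roots and 17.3 ± 0.341 FPKM in WT shoots (interaction −3.21, SE 0.0345, adjusted p = 9.65e-16). The other 12 were SP1L2, ATPMEPCRD, CYP79F2, MES9, DHAR1, F3'H, CEL3, AT2G18480, AT1G03820, AT5G52390, AT1G27020 and AT1G15085. The mean level of each of the 17 was higher in CCA1-ox shoots than in WT shoots, a difference that was not tested. For F3'H the shoot libraries of the genotypes overlapped, and its mean was 0.424 FPKM in CCA1-ox roots and 7.03 FPKM in WT roots. Most of the 17 also had a lower mean in CCA1-ox roots than in WT roots, VSP2, SP1L2 and AT1G27020 among them. The exceptions were PS2, ATPMEPCRD and AT5G03545, whose means were higher in CCA1-ox roots. For CEL3, AT5G52390 and PS2 the root libraries of the genotypes overlapped. These root differences were not tested either.

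A smaller set had a higher interaction in CCA1-ox. SWEET2, a vacuolar sugar transporter, averaged 37.6 ± 1.36 FPKM in CCA1-ox roots and 4.61 ± 0.363 FPKM in CCA1-ox shoots, against 32.9 ± 1.24 FPKM in WT roots and 22.4 ± 1.68 FPKM in WT shoots (interaction 2.25, SE 0.0821, adjusted p = 7.85e-11). Every CCA1-ox shoot library lay below every WT shoot library. CWINV1 averaged 126 ± 3.26 FPKM in WT roots and 10.2 ± 0.233 FPKM in WT shoots, with an interaction of 1.76, SE 0.0676, adjusted p = 1.28e-10. ALD1, an enzyme of pipecolic acid synthesis, and CYP716A2, a triterpene oxidase, were root transcripts with no fragment in shoots of either genotype. ALD1 averaged 20.8 ± 2.197 FPKM in CCA1-ox roots and 0 FPKM in all 3 CCA1-ox shoot libraries, against 3.25 ± 0.261 FPKM in WT roots and 0 FPKM in all 3 WT shoot libraries (interaction 2.36, SE 0.107, adjusted p = 7.10e-10). CYP716A2 averaged 31.5 ± 1.86 FPKM in CCA1-ox roots and 0 FPKM in all 3 CCA1-ox shoot libraries, against 6.39 ± 0.186 FPKM in WT roots and 0 FPKM in all 3 WT shoot libraries (interaction 2.14, SE 0.0812, adjusted p = 1.13e-10). AT1G13650, by contrast, had a smaller organ difference in CCA1-ox. It was a shoot transcript with no fragment in roots of either genotype, at 0 FPKM in all 3 CCA1-ox root libraries and 1.58 ± 0.348 FPKM in CCA1-ox shoots, against 0 FPKM in all 3 WT root libraries and 20.2 ± 0.747 FPKM in WT shoots (interaction 3.05, SE 0.116, adjusted p = 1.15e-10). Interactions of genes at 0 in an organ depend on the pseudocount of 1.

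**Figure D5:**
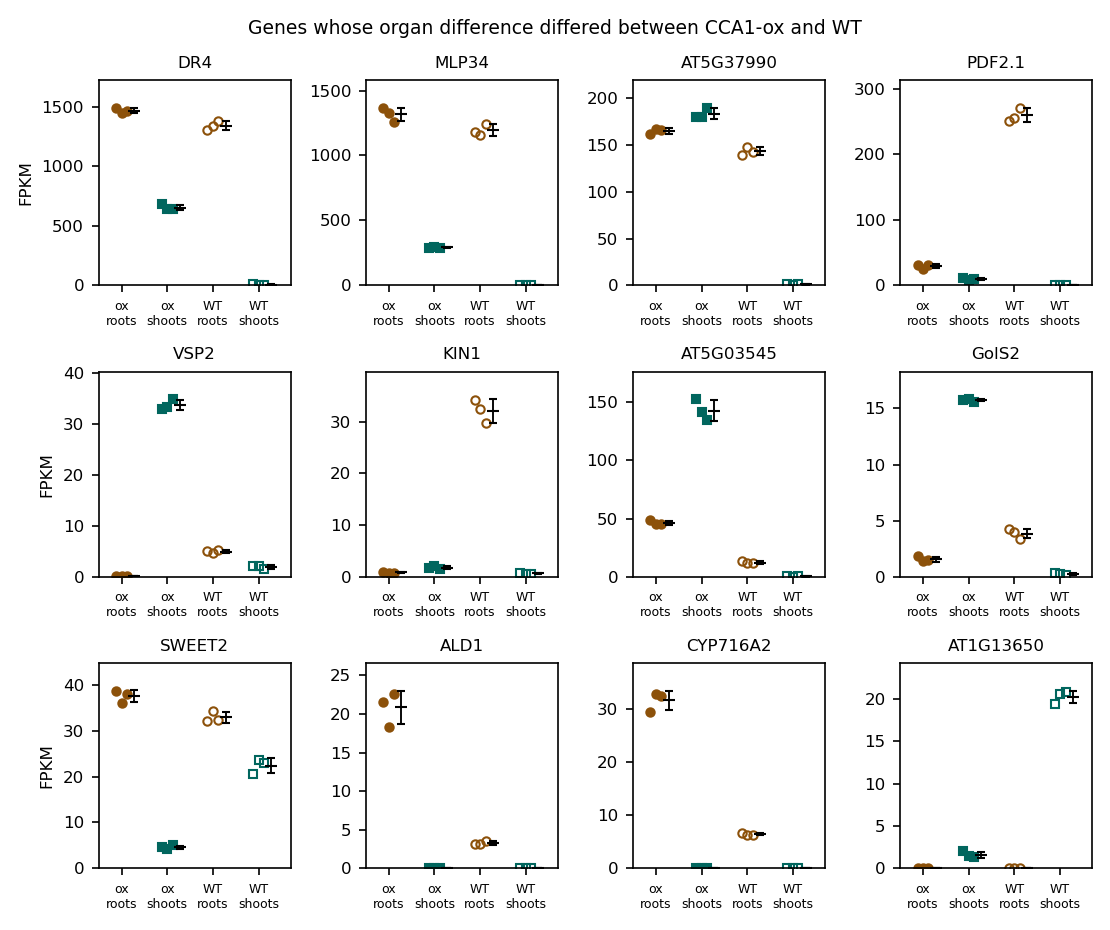
FPKM of 12 genes in each library of CCA1-ox roots, CCA1-ox shoots, WT roots and WT shoots (points, 3 libraries per group, filled for CCA1-ox and open for WT, black bars mean ± SD, axes from 0). DR4, MLP34 and AT5G37990 stand high in CCA1-ox shoots and near 0 in WT shoots, and VSP2, AT5G03545 and GolS2 are higher in shoots than in roots in CCA1-ox and higher in roots than in shoots in WT.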

How the data were processed

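RNA sequencing of 12 libraries was used, 3 each of CCA1-ox roots, CCA1-ox shoots, WT roots and WT shoots. The values are FPKM per gene as deposited by the authors, on TAIR10 per the submitters' processing notes, and the aligner's settings and strand setting were not stated. Values times gene length gave whole fragments within 0.1 for 100% of values, so the fragments of each library could be recovered. The library size in the deposited values was 1.092 to 1.099 times the summed fragments in CCA1-ox roots and 0.975 to 0.978 times in CCA1-ox shoots. In WT it was 1.143 to 1.151 times in roots and 0.904 to 0.907 times in shoots. The count behind a value is therefore known, but the main test was run on FPKM. Genes with at least 1 FPKM in 3 or more of the 6 CCA1-ox libraries were tested with limma 3.58.1 in R 4.3.3 on log2(FPKM + 1), with a mean-variance trend and two-sided Benjamini-Hochberg adjusted p under 0.05. On this scale fold changes of low genes are understated. The organ contrast used the 6 CCA1-ox libraries, and the interaction used all 12. The test was checked on simulated data. Tables were made with Python 3.11.15 and pandas 2.3.3.

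A gene whose fragments summed to 0 over an organ was set to 3 fragments for bounds on a fold, which cover counting error only. Gene lists, members and the rule for named genes were chosen with earlier results of these data known. The rule takes CCA1, the AHA genes, up to 4 called members of each list with the largest change plus the most abundant, the extreme and most abundant genes of each organ, and the extreme interactions and opposite genes. Named outside it, after their values were seen, were PRR9, TOC1, SCR, AVP1, LHCB4.3, TKL1, PGI1, CER4, FAR1, KCS20, ACR4, SMB, PLT1, AGL17, FIT, OPT3, BHLH38, BHLH39, BHLH100, BHLH101, SPX1, GLN2, EXPA9, SAUR36, SAUR41, SAUR72, PIN7, CKX6, CKX7, HY5, PHYB, MAM3, MYB122, TGG2, some opposite genes and the genes named for their promoters. Alternatives changed the pseudocount, filter, scaling, test, libraries and replicate block.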

Additional observations from a re-analysis of the deposited data

Results flagged for a closer look

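The organ difference differed between CCA1-ox and WT by an interaction test for each gene below, and each value is the log2 root minus shoot difference in CCA1-ox minus that in WT. In 12 genes it was lower in CCA1-ox. Among them were DR4 (−6.34), MLP34 (−6.04), AT5G37990 (−6.32), PDF2.1 (−6.08), KIN1 (−4.92), CYP81F4 (−3.61) and CYP86A1 (−2.78). Genes at least 2-fold different in opposite directions in the genotypes were VSP2 (−5.91), AT5G03545 (−4.87), GolS2 (−4.65), PS2 (−3.41) and XTH24 (−3.21). In 6 genes it was higher in CCA1-ox, AT1G13650 (3.05), ALD1 (2.36), SWEET2 (2.25), CYP716A2 (2.14), CWINV1 (1.76) and CCA1 (1.05), and for CCA1 the transgene enters both CCA1-ox organs.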

How the results depend on the processing

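Counts of genes higher and lower in CCA1-ox roots stayed within 1.5 times their main value under every alternative run. At least 2-fold higher genes fell to 2328 with a pseudocount of 5. The 17 genes lower in CCA1-ox roots and higher in WT roots became 37 with a pseudocount of 0.1, 4 with 5, and 42 with voom, and the opposite set, 0 genes, became 1 with a pseudocount of 0.1 and 1 with voom. Interactions became 3098 higher and 7624 lower with summed fragments. This scaling replaced the library sizes of the deposited values, whose ratios to the summed fragments differed between the 4 groups as given above. The median interaction over all genes tested was 0.038 as deposited and −0.11 with summed fragments. The cause of these shifts was not tested. Leaving out 1 library gave 9015 to 9085 genes higher, 8187 to 8216 lower, 3875 to 3908 at least 2-fold higher, 3920 to 3945 at least 2-fold lower, 5256 to 5473 and 4573 to 4698 interactions, and 0 and 16 to 17 opposite genes.

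Scaling moved some list medians by over 1.5 times without changing their sign. With summed fragments they were −0.14 for evening clock, 0.31 for AHA, 0.41 for clade D phosphatases, 0.34 for iron, −0.034 for phosphate, −0.21 for sulfur and −0.26 for cell division genes. With quantile normalization they were −0.12 for evening clock, 0.25 for AHA and 1.003 for aquaporins. Medians near 0 changed sign: potassium to −0.078 with a pseudocount of 5, −1.05 at a minimum of 5 FPKM, −0.011 with median-of-ratios scaling, and between −0.012 and 0.064 without 1 library; AHA to −0.020 with no filter; XTH to −0.18 at 5 FPKM. Genes near 0 did so too: AHA8 to 0.10 with quantile normalization, 0.11 with summed fragments and −0.063 to 0.0025 without 1 library; SCR to 0.12 with summed fragments and −0.070 to 0.0065 without 1 library; TOC1 to 0.037 with quantile normalization, 0.16 with summed fragments and −0.024 to 0.027 without 1 library; AT5G37990 to 0.014 with summed fragments. TOC1 became called with summed fragments (adjusted p = 0.0083). AT5G37990 also lost its call with quantile normalization (−0.064) and in the fit on 12 libraries (−0.15). Same-numbered root and shoot libraries did not deviate together (r = 0.066, 0.0021 and 0.029 over 10739 genes). Voom called 9039 genes higher and 8723 lower. With the replicate block 9257 genes were higher and 8403 lower in CCA1-ox roots, 3892 and 3917 by at least 2-fold, 5590 and 4819 interactions were called, and the opposite genes stayed at 0 and 17. Depth limits genes under 1 FPKM, which were not tested.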

Other observations

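Flowering, cell division and reference genes also differed between CCA1-ox roots and shoots, beside 45.2% higher and 41.1% lower over all genes tested. Flowering regulators fell in 8 and rose in 1 of 9 cases (median −1.87). FLC, a repressor of flowering, averaged 1.88 ± 0.411 FPKM in CCA1-ox roots and 17.8 ± 0.403 FPKM in CCA1-ox shoots (−2.72), and SVP, another repressor, 18.6 ± 0.995 FPKM in CCA1-ox roots and 65.5 ± 0.8797 FPKM in CCA1-ox shoots (−1.77). Cell division genes fell in 17 and rose in 1 of 23 cases, by a median of −0.402, and their summed level was 234 to 242 FPKM in CCA1-ox roots and 385 to 391 FPKM in CCA1-ox shoots. KNOLLE, a syntaxin of the cell plate, averaged 21.5 ± 1.197 FPKM in CCA1-ox roots and 52.1 ± 0.293 FPKM in CCA1-ox shoots (−1.24). Genes often used as references rose in 7 and fell in 1 of 12 cases, with a median of 0.13, or 0.72 with quantile normalization (9 higher, 1 lower) and 0.30 with summed fragments (10 higher, 0 lower). GAPC1, a glycolytic dehydrogenase, averaged 966 ± 26.2 FPKM in CCA1-ox roots and 292 ± 5.27 FPKM in CCA1-ox shoots (1.72).

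Genes of the organelle genomes pointed apart. Of 71 chloroplast genes tested of 133, none rose and 70 fell in CCA1-ox roots (median −2.04). Of 23 mitochondrial genes tested of 154, 14 rose and 3 fell (median 0.56).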
